A study of Mus musculus with 8 samples.

Results

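Hepatokines are proteins that the liver releases into the blood and that act on metabolism elsewhere in the body. The set described here holds 9 of them, taken by gene symbol from a list of liver-secreted metabolic hormones and activin subunits: Ahsg, Rbp4, Fgl1, Angptl4, Angptl8, Inhbc, Inhbe, Gdf15 and Fgf21. All 9 symbols were found among the 13696 distinct symbols of the deposited liver RNA sequencing table, each on a single row, and all 9 passed the filter on low values. The members were chosen with the comparison of genotypes known, so their differences are given as descriptions, with a standard error and no p-value.

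The groups were 4 Alb-Cre Bicd2fl/fl livers and 4 Alb-WT Bicd2fl/fl livers. All mice carried floxed alleles of Bicd2, which encodes an adaptor between dynein and its cargo. In the Alb-Cre mice, Cre recombinase was driven from the albumin promoter, which is active in hepatocytes, so the design aims at Bicd2 there. Whether Bicd2 was also lost in other liver cells was not tested. Both groups went through a model of autoimmune hepatitis, set up by injecting 2.5 mg of a mouse liver extract (S-100) in complete Freund's adjuvant weekly for 3 weeks, and livers were collected 2 weeks later. No liver from outside the model was analysed here, the labels used here give no age, and nothing in them states that the libraries came from separate animals, so the errors may hold technical spread only.

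FGF21 is a hormone of fasting and stress that signals through FGF receptors with the co-receptor beta-Klotho, and GDF15 is a stress hormone that acts on the hindbrain. Angptl4 and Angptl8 encode secreted regulators of lipoprotein lipase, the enzyme that frees fatty acids from circulating triglycerides. Angptl8 is known as a feeding-responsive gene, and Angptl4 is known as a fasting-responsive gene. Inhbc and Inhbe encode the activin subunits beta C and beta E, both made mainly in the liver. Rbp4 carries retinol in blood, Ahsg (fetuin-A) is an abundant plasma glycoprotein that binds mineral and inhibits the insulin receptor, and Fgl1 is a fibrinogen-like protein and a ligand of the immune checkpoint LAG3.

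The libraries are described by FPKM, the number of sequenced fragments scaled by gene length and library total. Bicd2 was 0.705, 0.568, 0.509 and 0.732 FPKM in Alb-Cre replicates 1 to 4, against 2.46, 3.02, 2.80 and 3.11 FPKM in Alb-WT replicates 1 to 4. Totals behind the values ranged from 32793770 to 39157210 reads per library. Alb-Cre replicate 4 stood apart from its group: across genes on the log2 scale its Pearson correlation with the other Alb-Cre libraries was at most 0.968, and with Alb-WT libraries it was 0.980 to 0.982. Of the hepatocyte markers 9 of 10 were in the table, and their summed level was 34313 FPKM in Alb-Cre replicate 4, 40296 to 41549 FPKM in Alb-Cre replicates 1 to 3, and 40491 to 40822 FPKM in Alb-WT. The 8 Kupffer cell markers summed to 679 FPKM in that library, 237 to 248 FPKM in Alb-Cre replicates 1 to 3 and 723 to 770 FPKM in Alb-WT. Each member's difference is therefore given with and without that library. In RNA from whole liver, fewer cells of a type and less RNA per cell cannot be told apart.

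Among the members, Inhbc was lower in all 4 Alb-Cre libraries. Angptl8 and Inhbe were higher in all 4. Ahsg was slightly lower in all 4, and the other 5 members had overlapping groups. Without Alb-Cre replicate 4 the groups of Angptl4 and Fgl1 were separate, and those of Rbp4, Gdf15 and Fgf21 still overlapped. Angptl8 and Inhbe were called higher and Inhbc lower by limma over all genes (adjusted p under 0.05), so 3 of 9 members were called, against 31.8% of the 11077 genes tested (8.48% higher and 23.3% lower). Groups did not overlap for 4 of 9 members (2 higher and 2 lower), against 30.6% of tested genes (9.27% higher and 21.4% lower). Without Alb-Cre replicate 4, 6 of 9 were called (3 higher and 3 lower), against 61.3% of genes (15.2% higher and 46.1% lower). The same 6 then had separate groups, against 60.6% of genes (14.6% higher and 46.0% lower). Because this comparison was in view when the members were chosen, nothing is read from these shares. The median log2 difference was -0.08 over the members and -0.13 over all tested genes.

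**Figure D1:**
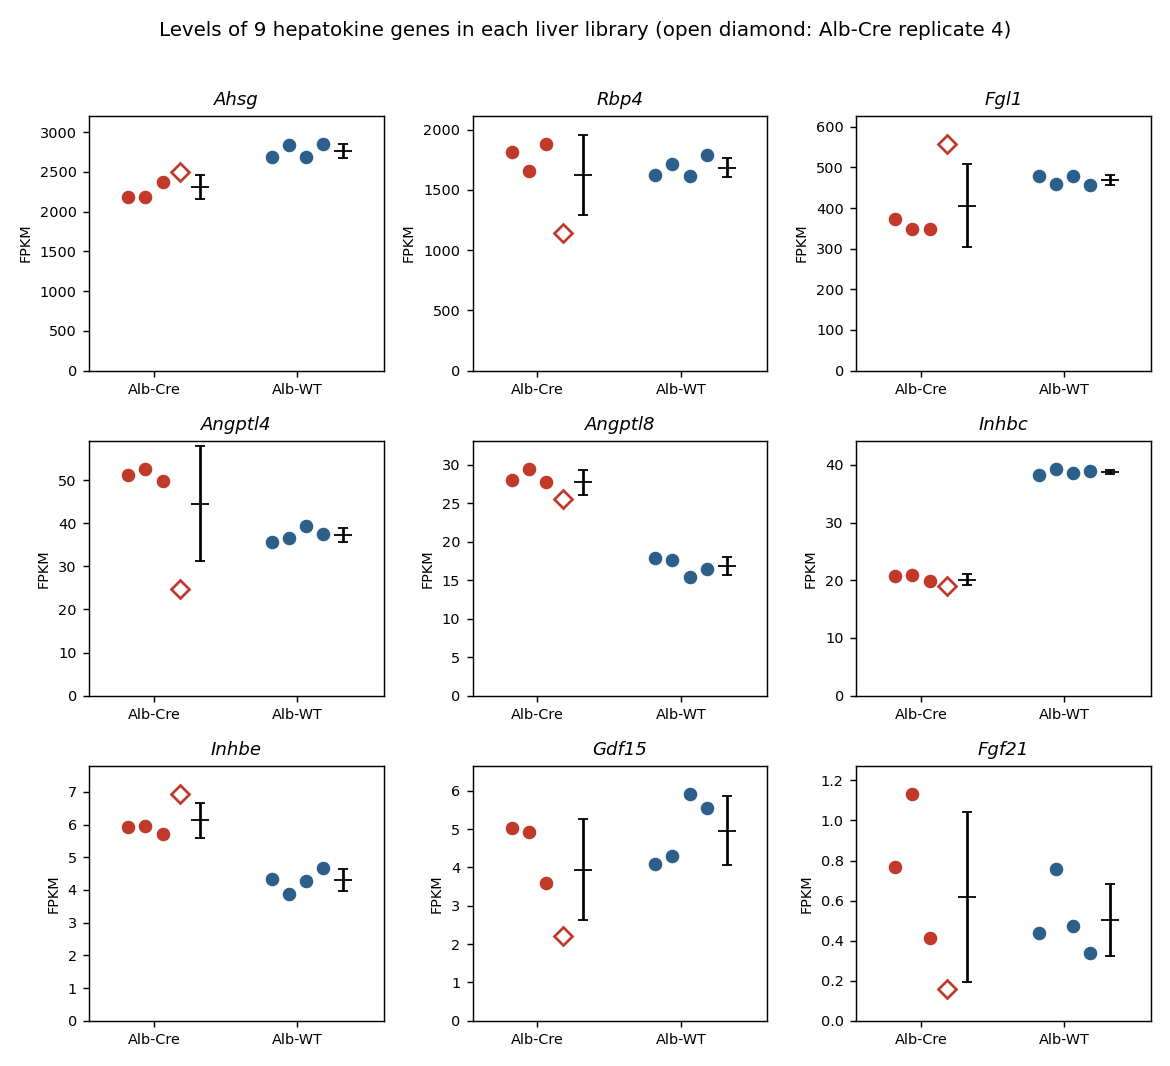
Level of each of the 9 genes in FPKM (vertical axis, from 0) in the 4 Alb-Cre libraries (left, red) and the 4 Alb-WT libraries (right, blue). Points are libraries, the open diamond is Alb-Cre replicate 4, and the bar is the mean ± SD of the 4. Groups are separate for Ahsg, Angptl8, Inhbc and Inhbe, and the diamond lies away from the other Alb-Cre libraries for Angptl4, Fgl1 and Rbp4.

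The members spanned a wide range of levels, which FPKM allows to be compared between genes. Ahsg led with a mean of 2308 ± 153 FPKM in Alb-Cre and 2767 ± 87.7 FPKM in Alb-WT (SD, n = 4 each). Rbp4 and Fgl1 followed. Angptl4, Angptl8 and Inhbc lay well below these, and their order differed by genotype: in Alb-Cre it was Angptl4, Angptl8, Inhbc, and in Alb-WT Inhbc, Angptl4, Angptl8. Inhbc at 38.8 ± 0.402 FPKM and Angptl4 at 37.2 ± 1.66 FPKM in Alb-WT had overlapping ranges. Inhbe and Gdf15 were near 5 FPKM, and in Alb-WT their ranges overlapped. Fgf21 was lowest, at 0.618 ± 0.423 FPKM in Alb-Cre and 0.503 ± 0.179 FPKM in Alb-WT.

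Promoters of 7 of the 9 members were matched by symbol in RefSeq sequences of build GRCm38.p6, and those of Angptl4 and Fgl1 were not. The 250 bases before the start are shown for Inhbe, Angptl8 and Fgf21, which share an 8-base word. They are also shown for Inhbc, the neighbour of Inhbe on chromosome 10, which lacks it. The windows of Gdf15, Rbp4 and Ahsg lack the word too, and Fgf21, which has it, had overlapping groups. Any part of the word in the differences between genotypes was not tested. Capitals mark TGATGCAA or its reverse complement TTGCATCA, the letters of a composite element for C/EBP and ATF proteins. This word was picked after the sequences had been read.
Inhbe, chr10:127351849-127352098, minus strand: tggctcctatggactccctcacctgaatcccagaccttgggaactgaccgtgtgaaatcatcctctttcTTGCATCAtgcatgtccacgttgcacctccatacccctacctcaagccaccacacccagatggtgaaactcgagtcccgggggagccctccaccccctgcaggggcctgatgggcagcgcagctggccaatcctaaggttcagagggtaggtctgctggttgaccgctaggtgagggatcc
Angptl8, chr9:21835260-21835509, plus strand: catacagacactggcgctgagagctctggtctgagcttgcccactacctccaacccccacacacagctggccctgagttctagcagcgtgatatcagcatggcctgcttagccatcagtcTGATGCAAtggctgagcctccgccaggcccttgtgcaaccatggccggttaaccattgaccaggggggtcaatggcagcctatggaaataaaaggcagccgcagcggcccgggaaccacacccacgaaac
Fgf21, chr7:45615491-45615740, minus strand: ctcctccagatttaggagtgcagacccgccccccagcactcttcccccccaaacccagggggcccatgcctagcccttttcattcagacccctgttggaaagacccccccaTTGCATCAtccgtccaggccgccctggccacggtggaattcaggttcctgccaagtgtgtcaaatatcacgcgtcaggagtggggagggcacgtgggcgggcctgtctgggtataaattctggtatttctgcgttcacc
Inhbc, chr10:127370549-127370798, minus strand: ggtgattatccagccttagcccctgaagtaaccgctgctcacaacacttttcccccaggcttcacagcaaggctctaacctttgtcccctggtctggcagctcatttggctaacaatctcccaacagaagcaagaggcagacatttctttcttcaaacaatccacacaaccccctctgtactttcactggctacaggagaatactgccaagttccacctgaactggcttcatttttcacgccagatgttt
TGATGCAA, on either strand, was found in 260 of 32851 promoter windows of this length (0.79%), and in 62 of 11242 windows of tested genes (0.55%). In Inhbe it lies 181 to 174 bases before the start, in Angptl8 130 to 123 bases and in Fgf21 139 to 132 bases. A longer form, TGATGNAAT, overlapping this word, was found in 0.82% of windows, and among the members in those of Angptl8, Fgf21 and Rbp4. CACGTG, the E-box, was found in 6.02% of windows and in those of Fgf21 and Gdf15, and TATAAA, the TATA box, in 12.37% and in those of Fgf21 and Rbp4. TTCNNNGAA, a STAT word (7.02% of windows), and the nuclear receptor word DR1 (0.03%) were found in no member's window. All 6 words were searched on both strands. A match is a run of letters and does not show binding.

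The activin subunit genes moved in opposite directions. Inhbc had 20.7, 20.98, 19.9 and 19.0 FPKM in Alb-Cre replicates 1 to 4, against 38.3, 39.3, 38.6 and 38.9 FPKM in Alb-WT replicates 1 to 4. The groups were far apart, and Alb-Cre replicate 4 lay with its own group. The mean was 20.1 ± 0.904 FPKM in Alb-Cre and 38.8 ± 0.402 FPKM in Alb-WT (SD, n = 4 each), a ratio of 0.519. On the log2(FPKM + 1) scale, which is used for all differences and understates those of low genes, the difference was -0.91 (SE 0.056), and -0.89 (SE 0.044) without Alb-Cre replicate 4.

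Inhbe had 5.93, 5.96, 5.69 and 6.92 FPKM in Alb-Cre replicates 1 to 4, against 4.34, 3.87, 4.29 and 4.68 FPKM in Alb-WT replicates 1 to 4. The highest value was that of Alb-Cre replicate 4, and the groups did not overlap. Means were 6.13 ± 0.544 FPKM in Alb-Cre and 4.29 ± 0.332 FPKM in Alb-WT (SD, n = 4 each), with a log2 difference of 0.43 (SE 0.079), and 0.38 (SE 0.065) without that library. The Inhbe to Inhbc ratio, chosen after the values were seen, was 0.305 ± 0.0396 in Alb-Cre and 0.111 ± 0.00912 in Alb-WT. Alb-Cre replicate 4 gave the highest ratio, 0.365, and the others of its group gave 0.284 to 0.287. In GENCODE M21, exons of Inhbc overlap those of an unnamed antisense gene model, and the strand setting of the counting is not given in the sources used here, so reads from either cannot be told apart.

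The list of activin signalling genes was picked by role, with earlier results of these data known. Of its 12 tested genes 5 fell, none rose and 7 did not pass, and the list's median log2 difference was -0.24. Without Alb-Cre replicate 4, 8 of the 12 fell and 0 rose. Over all tested genes 23.3% were called lower and 8.48% higher, and without that library these shares were 46.1% and 15.2%. Fst encodes follistatin, which binds and blocks some activins, and its action on the Inhbc product was not tested. It was 0.399, 0.449, 0.463 and 1.67 FPKM in Alb-Cre replicates 1 to 4, against 5.50, 5.17, 5.43 and 5.12 FPKM in Alb-WT replicates 1 to 4. It fell to 0.745 ± 0.617 FPKM in Alb-Cre, against 5.31 ± 0.190 FPKM in Alb-WT (SD, n = 4; limma log2 fold change -1.91, SE 0.193, adjusted p = 0.00045), and Alb-Cre replicate 4 lay between its group and Alb-WT. Smad3, a transducer of activin and TGF-beta signals, fell by 0.52 on the log2 scale (limma adjusted p = 0.00711). The receptor antagonist Bambi and the co-receptor Tgfbr3 (betaglycan) fell by 0.33 and 0.32 (limma adjusted p = 0.0168 and 0.0183). The call for Bambi was lost without Alb-WT replicate 2 (limma adjusted p = 0.0503) or 3 (0.0531). The call was also lost with quantile normalization (0.315). The call for Tgfbr3 was lost without Alb-Cre replicate 1 (0.051) or Alb-WT replicate 1 (0.0532) or 3 (0.0512), with the replicate block (0.0512), and with median-of-ratios scaling (0.0994) or quantile normalization (0.54). Smad4, the shared partner of these transducers, named after its value was seen, fell by 0.30 (limma adjusted p = 0.0373) and lost its call on leaving out any library but Alb-Cre replicate 4 (0.0652 to 0.0992), and with the replicate block (0.0504), median-of-ratios scaling (0.132) and quantile normalization (0.0798).

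The receptor gene Acvr2a was 3.18 ± 0.317 FPKM in Alb-Cre and 3.47 ± 0.149 FPKM in Alb-WT (SD, n = 4) and was not called (limma log2 fold change -0.10, SE 0.074, adjusted p = 0.316). Its sign turned with median-of-ratios scaling and quantile normalization. Acvr2b, another type II receptor gene, was below the filter, at 0.329 ± 0.0572 FPKM in Alb-Cre and 0.516 ± 0.141 FPKM in Alb-WT. Inhbb, an activin subunit gene, was below it too, and Inha, Acvr1c and Fstl3 were not analysed here. Summed stellate cell markers (7 of 7 in the table) were 30.0 to 39.8 FPKM in Alb-Cre and 50.0 to 53.7 FPKM in Alb-WT. Of these 7 genes 3 were called lower and 0 higher, and Lrat, Reln, Des and Pdgfrb had overlapping groups. Dcn made up most of the sum and was 23.6 FPKM in Alb-Cre replicate 4, within its group. Col1a1 was 6.76 FPKM there, against 1.53 to 1.80 FPKM in Alb-Cre replicates 1 to 3. Any part of these cells in the fall of Fst was not tested. The Inhbc to Fst ratio, chosen after the values were seen, was 52.0, 46.7, 42.9 and 11.4 in Alb-Cre replicates 1 to 4, against 6.96, 7.60, 7.11 and 7.59 in Alb-WT replicates 1 to 4. It compares levels only, and Fst, its denominator, was 0.399 to 0.463 FPKM in Alb-Cre replicates 1 to 3.

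**Figure D2:**
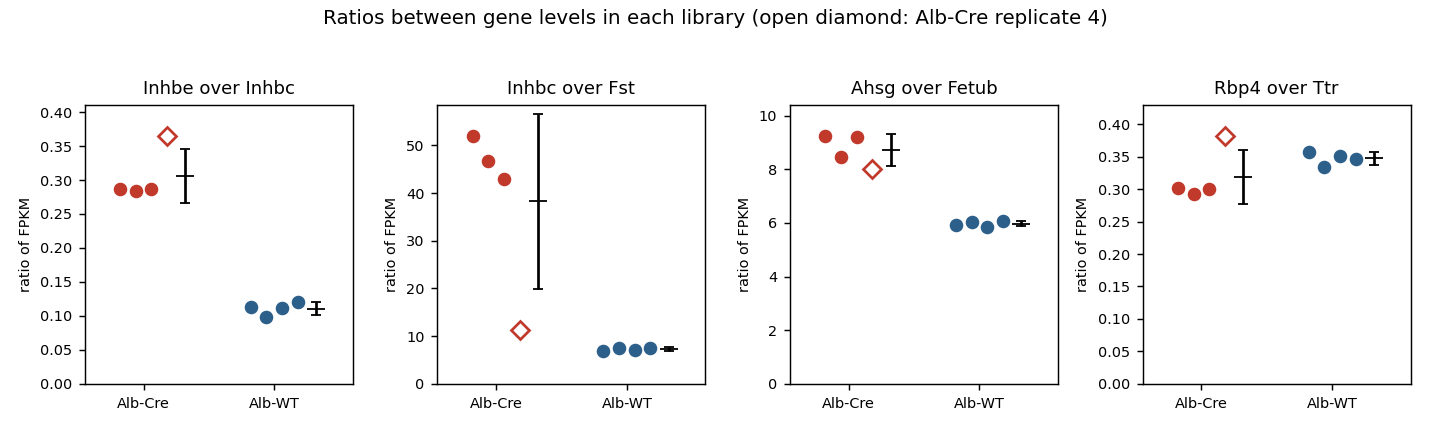
Ratio of the FPKM levels of pairs of genes (vertical axis, from 0) in the 4 Alb-Cre libraries (left, red) and the 4 Alb-WT libraries (right, blue), with the mean ± SD beside the points; the open diamond is Alb-Cre replicate 4. Every Alb-Cre library lies above every Alb-WT library in the first 3 panels (Inhbe over Inhbc at 0.284 to 0.365 in Alb-Cre against 0.0985 to 0.120 in Alb-WT), and the groups overlap for Rbp4 over Ttr.

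Of the genes that act on lipoprotein lipase, Angptl8 was higher in every Alb-Cre library. It had 28.1, 29.5, 27.8 and 25.5 FPKM in Alb-Cre replicates 1 to 4, against 17.9, 17.7, 15.5 and 16.4 FPKM in Alb-WT replicates 1 to 4. Replicate 4 was the lowest of the Alb-Cre libraries and still above all of Alb-WT. Means were 27.7 ± 1.64 FPKM in Alb-Cre and 16.9 ± 1.14 FPKM in Alb-WT (SD, n = 4 each), a ratio of 1.64. The log2 difference was 0.68 (SE 0.071), and 0.72 (SE 0.060) without Alb-Cre replicate 4. Angptl8 lies in an intron of Dock6 on the opposite strand. Dock6 had 1.49 to 2.02 FPKM over the 8 libraries, so it was low beside Angptl8.

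Angptl4 split the Alb-Cre group. It had 51.1, 52.5, 49.8 and 24.6 FPKM in Alb-Cre replicates 1 to 4, against 35.5, 36.6, 39.4 and 37.4 FPKM in Alb-WT replicates 1 to 4. Alb-Cre replicates 1 to 3 were above all Alb-WT libraries and replicate 4 was below them all. The log2 difference was 0.19 (SE 0.218) over all libraries and 0.45 (SE 0.049) without replicate 4. The mean of Alb-Cre replicates 1 to 3 was 51.2 ± 1.38 FPKM (SD, n = 3), 1.37 times the Alb-WT mean, and replicate 4 had 0.662 times that mean.

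In the lipase list 2 of 11 tested genes rose, 2 fell and 7 did not pass, with a median log2 difference of -0.07. Leaving out Alb-Cre replicate 4 gave 5 that rose and 4 that fell. Of all tested genes 8.48% were called higher and 23.3% lower, and 15.2% and 46.1% without that library. Lpl, the lipase gene itself, was 2.90, 2.76, 2.27 and 6.82 FPKM in Alb-Cre replicates 1 to 4, against 8.75, 8.48, 8.29 and 7.84 FPKM in Alb-WT replicates 1 to 4. Alb-Cre replicate 4 was near the Alb-WT level. Lpl fell (limma log2 fold change -1.08, SE 0.239, adjusted p = 0.0125), and fell by 1.36 without that library. Lpl is made by macrophages too. The monocyte and macrophage markers (7 of 7 in the table) summed to 435 FPKM in Alb-Cre replicate 4 and to 91.1 to 101 FPKM in its group otherwise, against 408 to 438 FPKM in Alb-WT, and their part in the Lpl difference was not tested. Lyz2 made up most of each sum. In Alb-Cre replicate 4, Ly6c2 and Ccr2 lay below all Alb-WT libraries, and Gpnmb, Itgam and Cd68 above them. Apoa5, an activator of the lipase, fell by 0.33 (limma adjusted p = 0.0136), a call lost with median-of-ratios scaling (0.302). Lmf1 and Sel1l, needed for folding and export of the lipase from the endoplasmic reticulum, rose by 0.29 and 0.28 on the log2 scale (limma adjusted p = 0.0116 and 0.011). Markers of adipocytes, another source of Angptl4, Rbp4 and Lpl, were at the edge of the table: 1 of 5, Cidec, was listed, at 0.887 to 1.34 FPKM in Alb-Cre and 0.291 to 0.874 FPKM in Alb-WT.

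**Figure D3:**
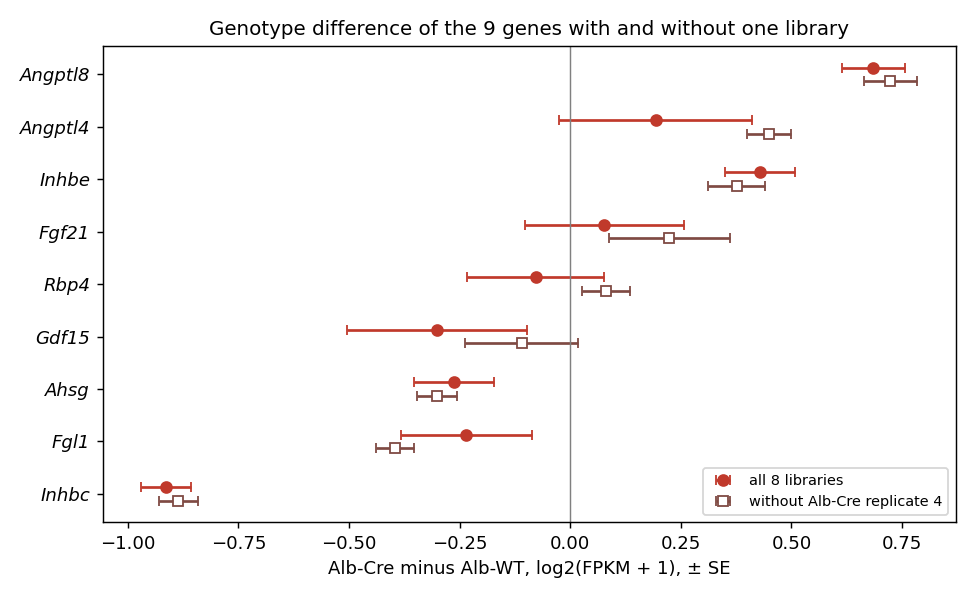
Difference of Alb-Cre minus Alb-WT in log2(FPKM + 1) (horizontal axis) for each of the 9 genes, with its SE, from all 8 libraries (filled circles) and without Alb-Cre replicate 4 (open squares). Inhbc (-0.91 and -0.89) and Angptl8 (0.68 and 0.72) are little changed by that library, and Angptl4 (0.19 and 0.45) is changed most.

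Fgf21 was scarce and its groups overlapped. It had 0.770, 1.13, 0.412 and 0.161 FPKM in Alb-Cre replicates 1 to 4, against 0.439, 0.757, 0.474 and 0.341 FPKM in Alb-WT replicates 1 to 4. These values rest on 24, 36, 14 and 6 recovered reads in Alb-Cre and 14, 28, 15 and 12 in Alb-WT. Over all genes, recovered numbers up to 20 were mostly even (75.7%), so the fragments may be fewer than these reads. The log2 difference was 0.08 (SE 0.180), and 0.22 (SE 0.136) without Alb-Cre replicate 4. Gdf15 had 5.04, 4.92, 3.59 and 2.22 FPKM in Alb-Cre replicates 1 to 4, against 4.09, 4.30, 5.91 and 5.54 FPKM in Alb-WT replicates 1 to 4. Its groups overlapped, with the lowest value in Alb-Cre replicate 4, and the log2 difference was -0.30 (SE 0.203), or -0.11 (SE 0.128) without it.

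Genes for receptors of the hepatokines fell in 5 of 12 tested cases, with 0 higher and 7 not passing (median log2 difference -0.34). Without Alb-Cre replicate 4, 8 fell and 1 rose, against 46.1% of all tested genes lower and 15.2% higher (23.3% and 8.48% with all libraries). Fgfr4, the main FGF receptor of hepatocytes, was 6.10, 7.46, 7.14 and 11.7 FPKM in Alb-Cre replicates 1 to 4, against 15.0, 15.1, 15.8 and 15.1 FPKM in Alb-WT replicates 1 to 4. The groups did not overlap, and it fell by 0.87 on the log2 scale (SE 0.157, limma adjusted p = 0.00598). Klb, which encodes beta-Klotho, was 2.50 ± 0.349 FPKM in Alb-Cre and 2.80 ± 0.172 FPKM in Alb-WT (SD, n = 4) and was not called (limma log2 fold change -0.12, SE 0.085, adjusted p = 0.291), with the sign turned by quantile normalization. Fgfr1, the receptor that pairs with beta-Klotho in fat and brain, fell by 0.47 (limma adjusted p = 0.0208). That call was lost without Alb-Cre replicate 1 (0.0562), 2 (0.0556) or 3 (0.0598), without Alb-WT replicate 2 (0.0553) or 3 (0.0609), and with the replicate block (0.0515). The insulin receptor gene Insr fell by 0.31 (limma adjusted p = 0.011), a call lost with median-of-ratios scaling (0.0705). The integrin genes Itgb1 and Itga5 fell by 0.38 and 0.65 (limma adjusted p = 0.00517 and 0.00617). Lag3, for the checkpoint bound by Fgl1, was 1.21 ± 0.430 FPKM in Alb-Cre and 0.706 ± 0.149 FPKM in Alb-WT (SD, n = 4). It was not called (limma adjusted p = 0.0711), and was the 1 that rose without Alb-Cre replicate 4 (limma adjusted p = 0.0465). Named after its values were seen, it was not followed through the other settings or the search for outlying libraries. Gfral and Ret, the receptor genes of GDF15, Stra6 and the protease gene Fap were not analysed here.

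Rbp4 had 1811, 1657, 1880 and 1145 FPKM in Alb-Cre replicates 1 to 4, against 1624, 1713, 1615 and 1785 FPKM in Alb-WT replicates 1 to 4. Only Alb-Cre replicate 4 lay away from the other 7 libraries. The log2 difference was -0.08 (SE 0.155), and 0.08 (SE 0.055) without it. Ttr, whose product transthyretin carries RBP4 in plasma, was 6011, 5665, 6272 and 3000.4 FPKM in Alb-Cre replicates 1 to 4, against 4541, 5136, 4601 and 5147 FPKM in Alb-WT replicates 1 to 4. It too was lowest in Alb-Cre replicate 4 and was not called (limma log2 fold change 0.05, SE 0.228, adjusted p = 0.87). Without that library Ttr was called higher, at 0.30 (limma adjusted p = 0.00137), and its sign with all libraries turned under common-sum scaling and quantile normalization. The Rbp4 to Ttr ratio was 0.382 in Alb-Cre replicate 4 and 0.292 to 0.301 in the rest of its group, against 0.334 to 0.358 in Alb-WT. Among retinol genes 1 of 10 tested rose, 0 fell and 9 did not pass (median log2 difference -0.05), against 8.48% of all tested genes higher and 23.3% lower. Without Alb-Cre replicate 4, 3 of these 10 rose and 3 fell, against 15.2% and 46.1% of all tested genes. The gene that rose with all libraries was Rdh11, a retinal reductase, at 26.0 ± 3.07 FPKM in Alb-Cre and 14.0 ± 0.895 FPKM in Alb-WT (SD, n = 4; limma log2 fold change 0.85, SE 0.094, adjusted p = 0.000674).

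Ahsg had 2178, 2186, 2376 and 2492 FPKM in Alb-Cre replicates 1 to 4, against 2690, 2834, 2693 and 2851 FPKM in Alb-WT replicates 1 to 4. The groups did not overlap, and the ratio of means was 0.834. The log2 difference was -0.26 (SE 0.090), and -0.30 (SE 0.046) without Alb-Cre replicate 4. It was -0.10 with median-of-ratios scaling, which moved the median of all tested genes to -0.01, against -0.13 without rescaling, and it was -0.39 with quantile normalization (median 0.02). Exons of Ahsg overlap an antisense gene model in GENCODE M21 that had 0.399 to 1.02 FPKM over the 8 libraries. Fetub, which encodes the related fetuin-B and is the next protein-coding gene on chromosome 16, was 236, 259, 258 and 312 FPKM in Alb-Cre replicates 1 to 4, against 454, 468, 460 and 469 FPKM in Alb-WT replicates 1 to 4. It fell by 0.80 on the log2 scale (SE 0.091, limma adjusted p = 0.000747), and its groups were far apart. The Ahsg to Fetub ratio was 8.72 ± 0.607 in Alb-Cre and 5.98 ± 0.106 in Alb-WT.

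Fgl1 had 372, 347, 348 and 558 FPKM in Alb-Cre replicates 1 to 4, against 479, 458, 480 and 457 FPKM in Alb-WT replicates 1 to 4. Alb-Cre replicates 1 to 3 were below all Alb-WT libraries and replicate 4 above them all. The log2 difference was -0.23 (SE 0.148), and -0.40 (SE 0.043) without replicate 4. The fibrinogen chain gene Fgb, named after its values were seen, had 1858, 1786, 1870 and 4184 FPKM in Alb-Cre replicates 1 to 4, against 2405, 2447, 2363 and 2411 FPKM in Alb-WT replicates 1 to 4. As with Fgl1, Alb-Cre replicate 4 was above all Alb-WT libraries and replicates 1 to 3 were below them all.

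Among 23 other tested genes of liver-secreted hormones and carriers, 5 rose, 8 fell and 10 did not pass, with a median log2 difference of -0.20. With Alb-Cre replicate 4 left out, 7 rose and 14 fell. The shares of all tested genes were 8.48% higher and 23.3% lower, and 15.2% and 46.1% with that library left out. Manf, a secreted factor of the endoplasmic reticulum, rose to 72.0 ± 5.80 FPKM in Alb-Cre, against 32.6 ± 1.16 FPKM in Alb-WT (SD, n = 4; limma log2 fold change 1.12, SE 0.072, adjusted p = 6.74e-05). Lect2, a hepatokine linked to insulin action in muscle, rose to 101 ± 6.88 FPKM in Alb-Cre, against 63.5 ± 3.58 FPKM in Alb-WT (log2 fold change 0.66, SE 0.073, limma adjusted p = 0.000674). Igfbp2, an IGF-binding protein gene, fell to 103 ± 4.95 FPKM in Alb-Cre, against 184 ± 7.23 FPKM in Alb-WT (log2 fold change -0.84, SE 0.064, limma adjusted p = 0.000138). Named after their values were seen, Igfbp1, an insulin-repressed IGF-binding protein gene, fell by 2.05 (limma adjusted p = 0.00258) and Serpina12, which encodes vaspin, rose by 1.20 (limma adjusted p = 0.00707). Alb-Cre replicate 4 had 164 FPKM of Igfbp1, against 57.1 to 64.0 FPKM in Alb-Cre replicates 1 to 3 and 315 to 330 FPKM in Alb-WT. It had 12.2 FPKM of Serpina12, against 25.4 to 26.8 FPKM in Alb-Cre replicates 1 to 3 and 8.06 to 9.52 FPKM in Alb-WT.

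Regulators known to act on hepatokine genes were tested as a last list, of which 3 of 30 rose, 6 fell and 21 did not pass (median log2 difference -0.15). These counts were 6 that rose and 15 that fell without Alb-Cre replicate 4. For all tested genes the shares were 8.48% higher and 23.3% lower (median -0.13), and 15.2% and 46.1% without that library. Ppara, the nuclear receptor behind the fasting response of Fgf21 and Angptl4, was 6.53 ± 0.199 FPKM in Alb-Cre and 8.86 ± 0.676 FPKM in Alb-WT (SD, n = 4), and fell by 0.39 (SE 0.068, limma adjusted p = 0.0055). Its coactivator gene Ppargc1a fell by 0.70 and the related receptor gene Ppard by 0.36 (limma adjusted p = 0.000494 and 0.00748), the call for Ppard being lost with quantile normalization (0.316). Nfe2l2, which encodes the antioxidant regulator NRF2, fell by 0.35 (limma adjusted p = 0.00596). The 3 that rose, named after their values were seen, were Xbp1, a factor of the unfolded protein response, at 0.62 (limma adjusted p = 0.0171), and Cebpa and Atf5, of the C/EBP and ATF families, at 0.43 and 0.41 (0.0337 and 0.0475). Other genes of these families in the list were not called with all libraries: Cebpb (-0.16), Atf4 (0.19), Ddit3 (-0.04) and Atf6 (-0.25). Leaving out any library but Alb-Cre replicate 4 ended the calls for Cebpa (limma adjusted p = 0.0508 to 0.0918) and Atf5 (0.0527 to 0.112). Quantile normalization ended all 3 calls (0.0555 for Xbp1, 0.0601 for Cebpa and 0.182 for Atf5), and the replicate block those of Cebpa (0.0777) and Atf5 (0.0529). Common-sum scaling (0.146) and no filter (0.0512) ended that of Atf5. Over all 98 tested genes of these lists 11 rose and 26 fell, against 8.48% and 23.3% of all tested genes. Without Alb-Cre replicate 4 these counts were 22 and 52, against 15.2% and 46.1%.

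**Figure D4:**
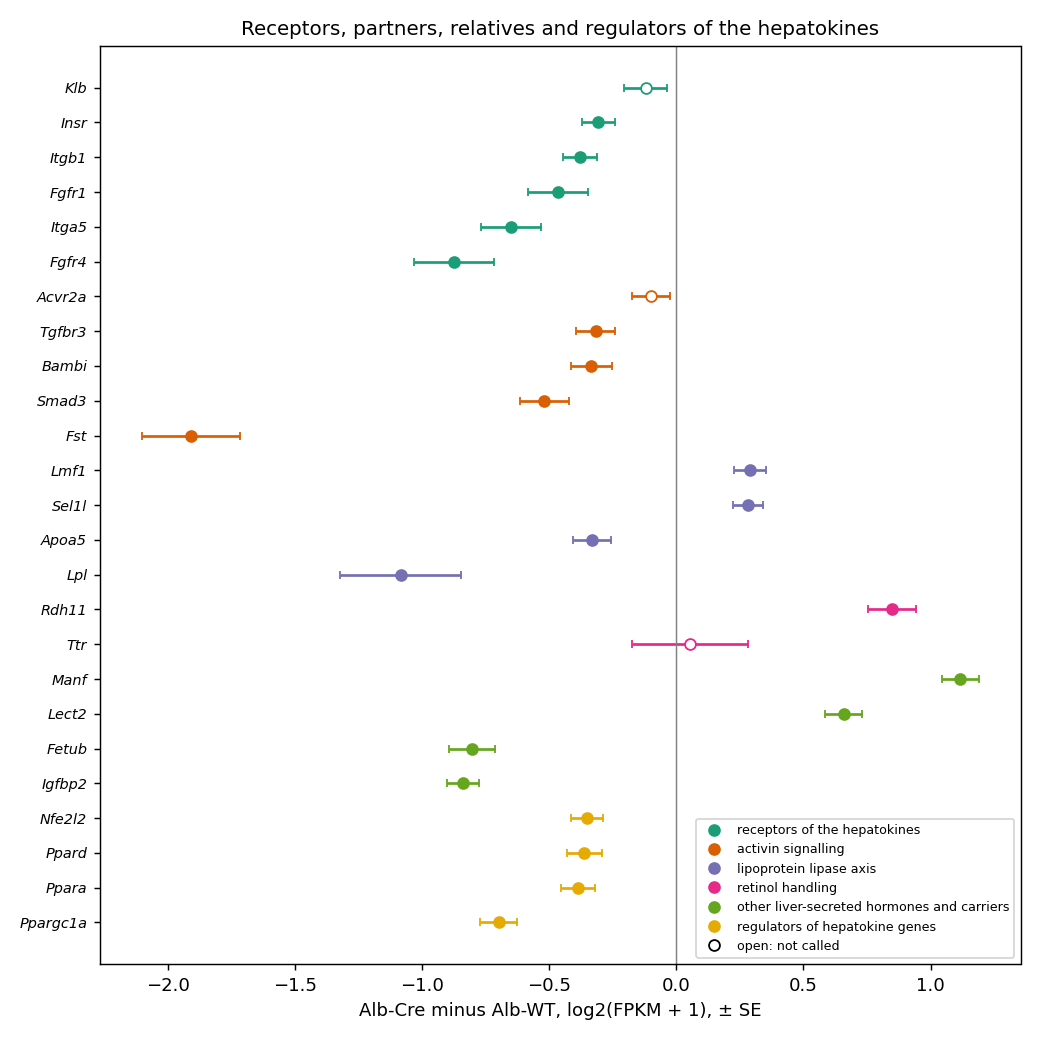
Difference of Alb-Cre minus Alb-WT in log2(FPKM + 1) (horizontal axis) with its SE for the genes named by rule in each list of receptors, partners, relatives and regulators, from all 8 libraries. Filled points were called by limma at an adjusted p under 0.05 and open points were not. Fst (-1.91) and Lpl (-1.08) fell most among these genes, and Manf (1.12) rose most.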

How the data were processed

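The deposited table gave FPKM, which the authors had computed, with 1 column per library. Columns were matched to samples by the library names in the labels. The submitters' processing notes name HISAT2 2.0.5 and list the builds mm39 and hg38 with no role. The sources used here do not give the counting tool, the annotation or the strand setting. Per the labels, the descriptions also say 10x Genomics, which a table of bulk libraries does not match. The table had 13703 rows and no value of 0.

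The test was limma (version 3.58.1, R 4.3.3) on FPKM plus a pseudocount of 1, on the log2 scale, with an intensity trend and genotype alone in the model. It ran on 11077 rows whose mean reached 0.5 FPKM, and p-values were adjusted over these by the method of Benjamini and Hochberg. On simulated data for Alb-Cre against Alb-WT over 10895 genes 89% of genes simulated at 1.5-fold and 100% at 2-fold were recovered, beside 18 false calls. The simulated libraries all had the same fixed spread, and none stood apart as Alb-Cre replicate 4 does. These rates therefore check the fit and do not give its rates on these data. The members and gene lists were chosen with earlier results of these data known. Named were all members, Bicd2, the 4 called genes of smallest p in each list and 10 direct partners (Klb, Fgfr1, Fgfr4, Insr, Acvr2a, Acvr2b, Fst, Lpl, Ttr and Fetub). A further gene of the lists is not reported here.

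Multiplying FPKM by the merged exon length of GENCODE M21 and by a library total found from the steps of low values gave whole numbers of reads (tolerance 0.01) in all 8 libraries for 12708 of 13442 genes (94.5%), the 9 members included. Of the recovered numbers up to 20, 75.7% were even. Coordinates are given only with the RefSeq promoters, whose build is GRCm38.p6. The alternatives were another pseudocount, other filters, 3 scalings, no intensity trend, voom on recovered reads, the replicate block and leaving out each library. Other steps ran in Python 3.11.15 (numpy 2.4.6, pandas 2.3.3, matplotlib 3.10.9).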

Additional observations from a re-analysis of the deposited data

Results flagged for a closer look

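In 108 groups of 4 values examined (named genes and summed marker levels), 17 held a library separated from the other 3 by most of the range of the group (Dixon criterion for 4 values), and 16 of these were Alb-Cre replicate 4. Without the genes named after their values were seen, these counts were 11 of 94, with 10 in Alb-Cre replicate 4. Chance gives about 1 in 20 groups, but the genes were chosen with earlier results known and share the same libraries, so the counts are a description and no test. Among the members these were Angptl4 (24.6 FPKM in Alb-Cre replicate 4, against 49.8 to 52.5 in Alb-Cre replicates 1 to 3) and Fgl1 (558, against 347 to 372 FPKM). Among their partners and relatives these were Fst (1.67, against 0.399 to 0.463 FPKM), Lpl (6.82, against 2.27 to 2.90 FPKM), Igfbp1 (164, against 57.1 to 64.0 FPKM) and Serpina12 (12.2, against 25.4 to 26.8 FPKM). Among regulators they were Xbp1 (125, against 76.0 to 81.9 FPKM), Atf5 (185, against 119 to 127 FPKM) and Cebpa (98.8, against 140 to 147 FPKM), and Fgb stood apart as well (4184, against 1786 to 1870 FPKM).

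Marker sums of that library were separated from those of Alb-Cre replicates 1 to 3 for Kupffer cells (679, against 237 to 248 FPKM), monocytes and macrophages (435, against 91.1 to 101 FPKM), neutrophils (86.4, against 7.03 to 7.39 FPKM), T and NK cells (14.1, against 1.31 to 2.14 FPKM), B and plasma cells (14.5, against 2.89 to 3.65 FPKM) and sinusoidal endothelium (30.3, against 41.0 to 42.8 FPKM). In Alb-WT, neutrophil markers (263 to 325 FPKM) and Kupffer cell markers (723 to 770 FPKM) summed to more than in any Alb-Cre library. Alb-WT sums of monocytes and macrophages (408 to 438 FPKM) spanned Alb-Cre replicate 4, with Lyz2 the main part (388 FPKM in that library). In Alb-Cre replicate 4, Ly6c2 (2.02, against 4.46 to 5.83 FPKM) and Ccr2 (1.84, against 2.48 to 3.38 FPKM) were below all Alb-WT libraries. Gpnmb (4.92, against 2.07 to 2.60 FPKM), Itgam (1.29, against 0.861 to 1.12 FPKM) and Cd68 (35.6, against 28.4 to 32.3 FPKM) were above them all. For T and NK cells and for B and plasma cells (5.47 to 6.49 FPKM), Alb-WT lay between Alb-Cre replicates 1 to 3 and replicate 4. For sinusoidal endothelium all Alb-WT sums were above Alb-Cre replicate 4. Its genes differed in direction. Clec4g, the largest part of the sum, was 17.9 to 19.6 FPKM in Alb-Cre replicates 1 to 3, against 12.1 to 14.6 FPKM in Alb-WT. Stab2 (2.34 to 3.33, against 4.41 to 4.51 FPKM) and Lyve1 (2.36 to 2.85, against 4.84 to 5.79 FPKM) were lower in every Alb-Cre library. Both were called (limma adjusted p = 0.00319 and 0.000278), and the other genes of this list were not. Outside Alb-Cre replicate 4 the single case was Fgfr4 in Alb-WT replicate 3 (15.8, against 15.0 to 15.1 FPKM in the other Alb-WT libraries).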

How the results depend on the processing

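Inhbc stayed lower and Angptl8 and Inhbe higher, and all 3 stayed called, in each of the 9 alternative settings and on leaving out each of the 8 libraries. A further member, Ahsg, was called lower when the filter was raised to 5 FPKM, with common-sum scaling, quantile normalization, no intensity trend and voom on recovered reads, so that 2 members were called lower there. Leaving out single libraries gave 2 to 3 members higher and 1 to 3 lower. Over all genes 939 were called higher and 2582 lower, and these counts were 623 higher with common-sum scaling, 1723 and 1658 with median-of-ratios, 1554 and 1469 with quantile normalization, and 981 lower when the filter was raised. Lower calls were 73.3% of all calls, 82.9% with common-sum scaling, 49.0% with median-of-ratios and 48.6% with quantile normalization. Leaving out single libraries gave 546 to 1679 higher and 1205 to 5112 lower, the highest of each without Alb-Cre replicate 4. Companion genes called were 11 higher and 26 lower, 17 lower under the raised filter, and 8 to 22 higher and 19 to 52 lower on leaving out single libraries.

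The replicate block gave 613 genes higher and 1631 lower, with 2 members higher and 1 lower. The labels state no pairing of same-numbered libraries. Their deviations from the group means correlated at -0.06, -0.05, -0.10 and 0.01. Alb-Cre replicate 4 shifts the mean of its group, so these correlations cannot decide whether the libraries were paired. Among named genes not called, signs turned for the members Rbp4 (0.09 with median-of-ratios, and -0.16 to 0.08 on leaving out single libraries) and Fgf21 (-0.02 with voom, and -0.07 to 0.22 on leaving out single libraries), and for Klb (0.08 with quantile normalization), Acvr2a (0.03 with median-of-ratios and 0.09 with quantile normalization), Ttr (-0.03 with common-sum scaling, -0.28 with quantile normalization, and -0.05 to 0.30 on leaving out single libraries) and Fgb (0.07 with median-of-ratios, and -0.39 to 0.02 on leaving out single libraries). The cause of these shifts was not tested. Fgf21 rests on 6 to 36 recovered reads per library, the fewest of the members.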

Other observations

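Genes with the most similar pattern were searched among 9303 others with a mean of at least 1 FPKM, by the root mean square difference of centred log2(FPKM + 1) values over the 8 libraries. The rule asked for an SD over 0.5 across libraries, and no member reached it (0.16 to 0.49, Inhbc highest), so the genes named here were chosen after the values were seen. Nearest to Inhbc was Slco1a4, an organic anion transporter gene, at a root mean square difference of 0.052, with 4.48 ± 0.317 FPKM in Alb-Cre and 9.56 ± 0.248 FPKM in Alb-WT (SD, n = 4). Nearest to Inhbe was Oasl1, of the oligoadenylate synthetase family, at 0.053, with 5.88 ± 0.470 FPKM in Alb-Cre and 3.93 ± 0.189 FPKM in Alb-WT. Nearest to Angptl8 was Adtrp, a lipid hydrolase gene, at 0.063, with 34.9 ± 3.18 FPKM in Alb-Cre and 22.2 ± 0.827 FPKM in Alb-WT. Nearest to Angptl4 was Akr1c6, a hydroxysteroid dehydrogenase gene, at 0.060, with 561 ± 179.9 FPKM in Alb-Cre and 476 ± 5.98 FPKM in Alb-WT.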
